A study of Mus musculus with 2 samples.

Results

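The genes described here are the Wnt ligands, their Frizzled and other receptors, the R-spondins, the secreted antagonists and the Dishevelled proteins of mouse embryonic stem cells (mESCs). They were chosen by name from the longer of the deposited array tables: identifiers of the Wnt, Fzd, Sfrp and Rspo families, Dkk2 to Dkk4, Lrp5, Lrp6, Porcn, Wif1, Frzb, Ror1, Ror2, Ryk and Dvl1 to Dvl3, with Wnt3 and Wnt8a left out. This gave 49 of 30774 identifiers. Total RNA came from mESCs of strain B6 (C57BL/6), labelled as inner cell mass of E3.5 embryos and grown in serum medium. The sources disagree on the line, since the labels give B6 whereas the paper names 46C mESCs for this comparison, and the labels are followed here. One culture received LIF, the cytokine that activates Stat3, and the other LIF plus CHIR99021 (CHIR), an inhibitor of GSK3, for 12 h. Each condition was hybridized to 1 Illumina beadchip, so 2 arrays were compared. The CHIR concentration of this experiment is not given in the sources used here, and the growth label of both samples names LIF/CHIR99021, so the condition was taken from the sample titles. Differences between the cultures or in array handling cannot be told apart from the treatment, and with 1 array a condition the differences below have no replicate and no test.

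Wnt proteins are secreted lipid-modified ligands. The acyltransferase Porcn adds the lipid, Wls carries the ligand to the cell surface, and Frizzled receptors with the co-receptors Lrp5 and Lrp6 bind it and engage Dishevelled inside the cell. This stops GSK3 from marking β-catenin for destruction, and β-catenin then works with TCF/LEF factors on DNA. CHIR acts on GSK3 itself, below the ligands and receptors, so the genes described here lie upstream of the step at which the compound acts. Some ligands, such as Wnt5a and Wnt5b, and the receptors Ror2 and Ryk are best known for signaling that does not need β-catenin. Sfrp proteins, Frzb and Wif1 bind Wnt proteins outside the cell, and Dkk2 and Dkk4 bind the Lrp co-receptors. R-spondins strengthen the signal by protecting Frizzled receptors from turnover. In the embryo, Wnt3a is known from the primitive streak, where mesoderm forms.

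The arrays reported a signal intensity, in arbitrary units after subtraction of background, and a detection p-value that sets this signal against negative control beads. A signal counted as detected at a detection p-value under 0.01. Both arrays were closely matched in scale, with a median signal of 527 on each over identifiers detected on both. Of 8 marker genes of mESCs, 6 were detected on each array, and none of them passed a 1.5-fold difference. Their median log2 difference was 0.22, with 4 above 0 and 2 below. Pou5f1 (Oct4) had 12346 in LIF and 11309 with CHIR. Nanog (1660 and 2429) and Klf4 (966 and 1444) were brighter with CHIR, by 1.463-fold and 1.495-fold, just under 1.5-fold. Sox2 (441 and 400) and Tdgf1 (26.6 and 14.6) were detected on neither array. None of 7 fibroblast markers was detected, and their summed signal was 212 without and 206 with CHIR, with Thy1 alone at 222 and 225 and with Col1a1, Col3a1, Dcn and Postn below 0 on both arrays. Among 6 primitive streak markers, 1 was detected in LIF and 3 with CHIR, and their summed signal was 118 and 671. Most of that difference came from T (brachyury, 8.05 and 394), while Mixl1 and Mesp1 were below 0 on both arrays. Of 6 primitive endoderm markers, 1 was detected, on both arrays (Sox7, 45.9 and 59.0), and their summed signal was 110 and 95.3. Of 4 neural markers, 1 was detected, only with CHIR (Nes, 27.7 and 44.8), and their summed signal was 17.6 and 59.6. Most of that difference came from Sox1 (-7.23 and 28.9), which was detected on neither array, while Pax6 went down (-5.58 and -14.6). The part of cells of these kinds in the results below was not tested. Axin2, a feedback gene of the pathway, was 3.75-fold higher in LIF plus CHIR (314 and 1178). The other feedback inhibitors looked at that were detected did not follow it. Notum (580 in LIF and 590 with CHIR), Apcdd1 (145 and 153) and Nkd2 (62.6 and 54.4) stayed under 1.5-fold, and Nkd1 was detected on neither array.

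Most members of the module were not detected. On the LIF array 10 of 49 were detected (20.4%), against 29.3% of all identifiers, and on the LIF plus CHIR array 14 of 49 (28.6%), close to the 29.8% of all identifiers. The count in LIF rests on the detection limit, since 17 members passed there at a detection p-value under 0.05, against 16 with CHIR. The 10 detected in LIF were among the 14 detected with CHIR, and Wnt5b, Rspo1, Rspo3 and Fzd3 made up the difference. By role, 4 of 17 Wnt ligands, Porcn, 2 of 4 R-spondins, 2 of 10 Frizzled receptors, neither Lrp co-receptor, 2 of 3 Ror and Ryk receptors, 2 of 3 Dishevelled genes and 1 of 9 secreted antagonists were detected on at least 1 array. In such bulk samples, fewer cells that express a gene and less RNA per cell cannot be told apart.

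**Figure D1:**
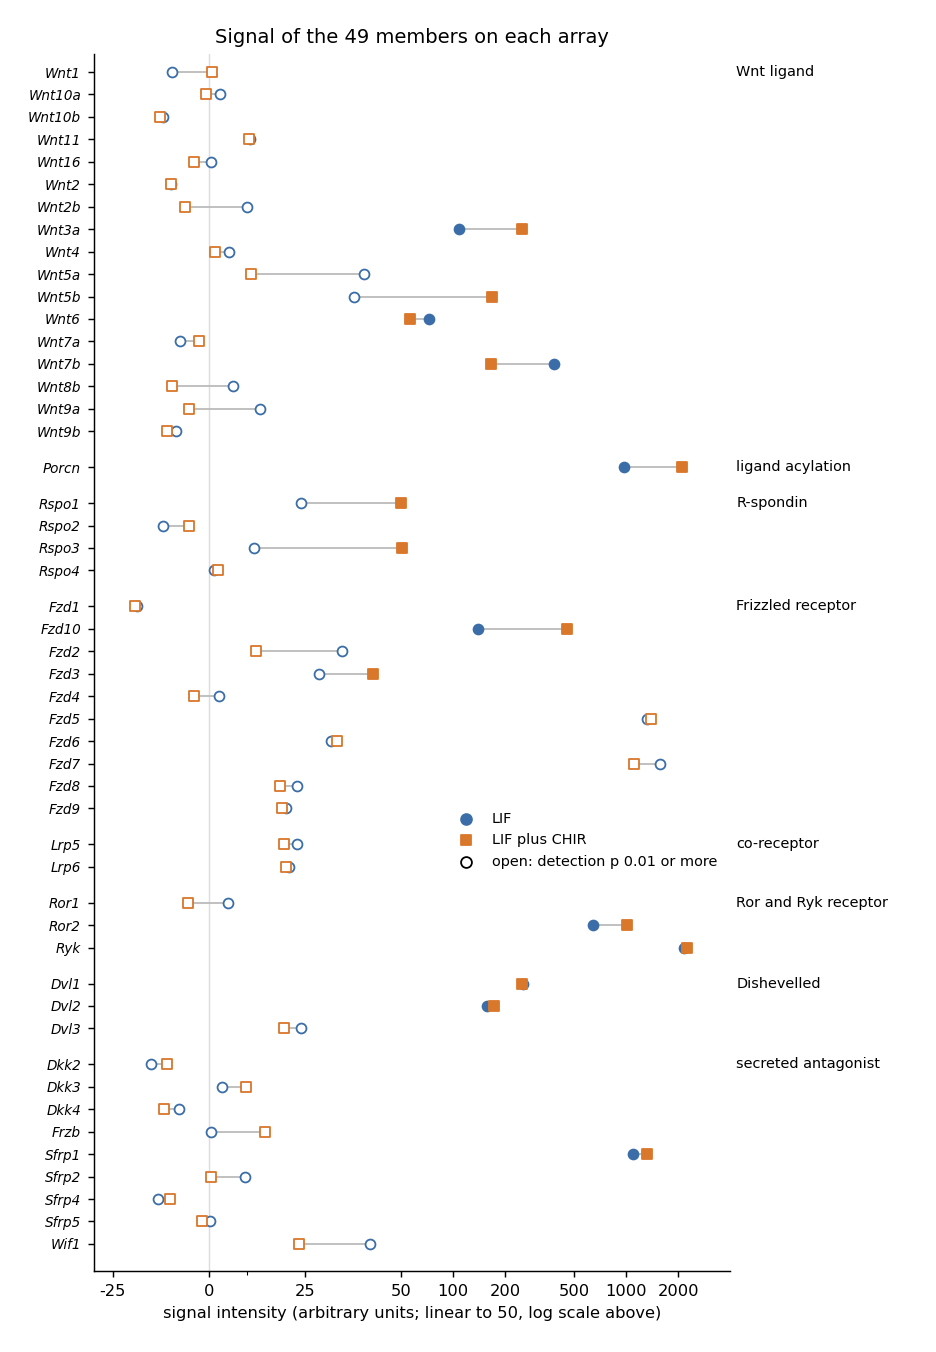
Signal intensity of each of the 49 members in LIF (circles) and in LIF plus CHIR (squares), in arbitrary units on an axis that is linear up to 50 and logarithmic above, ordered by role. Filled symbols have a detection p-value under 0.01, and the widest gaps among filled symbols are those of Fzd10, Wnt7b, Wnt3a and Porcn.

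Differences between the arrays were expressed as the ratio of LIF plus CHIR over LIF, and a member counted as higher or lower at 1.5-fold, a limit taken over from the study. A minimum signal was set for each array, the dimmest signal that still passed detection among identifiers with 1 probe (51.9 for LIF and 47.1 for LIF plus CHIR). Dimmer signals were replaced by it, which makes such a ratio a lower bound. No ratio was formed where both signals lay below it or where raising a signal turned the direction. Of the 14 detected members, 5 were higher (Wnt3a, Wnt5b, Porcn, Fzd10 and Ror2) and 1 was lower (Wnt7b). Over the 9615 identifiers detected on at least 1 array, 2.57% were higher and 2.84% lower. The median log2 difference of the 11 members with a ratio was 0.27, with 8 above 0 and 3 below, and that of the 9220 identifiers with a ratio was 0.00. For comparison at like brightness, 3.67% of identifiers with a brighter signal of 100 to 1000 were higher, the range of Wnt3a, Wnt5b and Fzd10, and 3.67% lower, the range of Wnt7b too. The share higher was 1.19% among those at 1000 or more, the range of Porcn and Ror2.

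**Figure D2:**
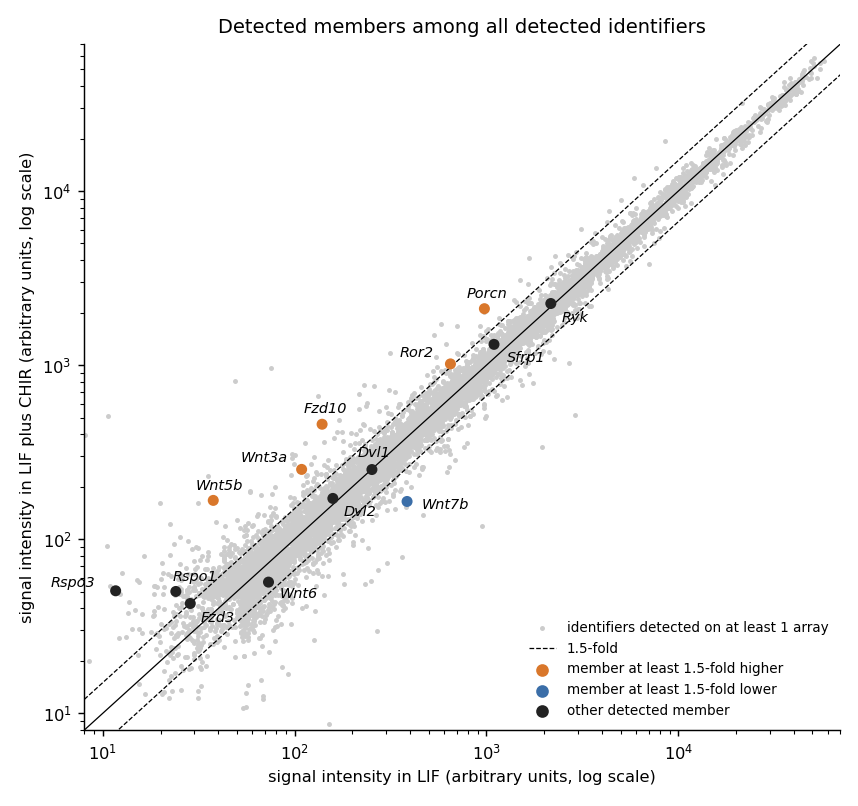
Signal in LIF (x axis) against signal in LIF plus CHIR (y axis), both in arbitrary units on log scales, for all identifiers detected on at least 1 array (grey, signals under 8 not shown) and for the 14 detected members. Porcn, Ror2, Fzd10, Wnt3a and Wnt5b lie above the upper dashed line of 1.5-fold, Wnt7b lies below the lower one, and Rspo1 and Rspo3 lie above the upper line at signals too low for a ratio.

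Among the ligands, Wnt3a and Wnt5b were higher with CHIR and Wnt7b was lower. Wnt3a (Entrez gene 22416, chromosome 11), a ligand of the β-catenin branch, gave a signal of 109 without CHIR and 252 with it. It was detected on both arrays with a detection p-value of 0, and the signal with CHIR was 2.31-fold higher. Wnt5b (Entrez gene 22419, chromosome 6) had 37.6 in LIF, where it missed detection with a detection p-value of 0.035, and 167 in LIF plus CHIR. Its signal was thus at least 3.22-fold higher, and the plain ratio of the signals was 4.44. Wnt7b (Entrez gene 22422, chromosome 15), also a ligand able to act through β-catenin, went the other way, with 385 in LIF and 165 in LIF plus CHIR. It was detected on both arrays and was 2.34-fold lower with CHIR, the single member past the limit in that direction. Wnt6 had 73.1 in LIF and 56.7 with CHIR, a 1.29-fold lower signal that did not reach the limit.

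The other 13 ligands were detected on neither array: Wnt1, Wnt2, Wnt2b, Wnt4, Wnt5a, Wnt7a, Wnt8b, Wnt9a, Wnt9b, Wnt10a, Wnt10b, Wnt11 and Wnt16. Their signals ranged from -11.9 to 40.3 in LIF and from -12.6 to 11.0 in LIF plus CHIR. Wnt5a, a ligand of the branch without β-catenin, had 40.3 in LIF with a detection p-value of 0.027, and 11.0 with CHIR. Unlike its close relative Wnt5b, Wnt5a was thus dimmer with CHIR, but neither of its signals reached detection and no ratio was formed.

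For the ligands and receptors that were higher with CHIR, the stretch just upstream of the annotated start is shown, because TCF/LEF factors, the partners of β-catenin, bind a short motif that can be searched there. The windows came from RefSeq (GRCm38.p6), 250 bases before to 50 after each start, and 33 of 49 members had at least 1 window, 36 windows in all. Porcn, Rspo3, Wnt7b, Sfrp1 and Fzd3 had none. The motif searched, on both strands, was CTTTG followed by 2 letters that are each A or T. At least 1 match was in 16.9% of all 32851 windows and in 3 of the 36 windows of members. The windows of members that were higher held a match in 1 of 6 (16.7%). The motif is rich in A and T, whereas the median share of G and C was 69.8% in windows of members and 52.7% in all windows. The part of base content in these counts was not tested. Below, bases -100 to -1 before the start are printed 5′ to 3′ on the strand of the gene, with any match in capitals.
Wnt3a, chr11:59290752-59290851, minus strand: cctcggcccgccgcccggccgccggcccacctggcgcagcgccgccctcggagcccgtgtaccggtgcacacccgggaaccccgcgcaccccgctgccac
Fzd10, chr5:128601006-128601105, plus strand: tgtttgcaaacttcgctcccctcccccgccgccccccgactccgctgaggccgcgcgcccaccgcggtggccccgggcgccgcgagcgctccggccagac
Ror2, chr13:53286125-53286224, minus strand: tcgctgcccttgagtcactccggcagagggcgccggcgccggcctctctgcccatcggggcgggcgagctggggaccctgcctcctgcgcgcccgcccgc
Wnt5b, chr6:119544348-119544447, minus strand: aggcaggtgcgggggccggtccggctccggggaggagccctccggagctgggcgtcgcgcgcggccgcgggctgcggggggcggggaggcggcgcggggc
Wnt5b, chr6:119449387-119449486, minus strand: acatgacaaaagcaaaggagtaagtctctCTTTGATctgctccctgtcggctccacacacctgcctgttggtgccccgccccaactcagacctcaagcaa

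The stretches of Wnt3a, Fzd10, Ror2 and the first Wnt5b start are rich in CG pairs, with 16, 16, 13 and 17 of them in 100 bases, and hold no match. Their whole windows hold none either. Wnt5b has 3 annotated starts with a window, of which the first and the last are shown. The match, CTTTGAT, lies 71 bases before the start shown last, whose stretch has 2 CG pairs. The start between them is not printed, and its stretch holds 0 CG pairs and no match. The array gives 1 value for Wnt5b and does not tell which start was in use. The other matches among members were in windows of Fzd7 and Wnt11. A match in these letters is a description of the sequence and not a measured binding site, and windows of this length leave out distant elements.

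Porcn was higher with CHIR. The gene (Entrez gene 53627, X chromosome) encodes the enzyme that acylates Wnt ligands. Its signal was 975 without CHIR and 2110 with it, both with a detection p-value of 0, and the difference was 2.16-fold. Wls, which escorts acylated Wnt proteins to the cell surface and is listed on the array under its older name Gpr177, is no member of the module and was taken from a list of other pathway genes. It had 69.0 in LIF and 107 with CHIR, 1.54-fold higher. Both genes of the ligand export route were thus higher on the array with CHIR, Wls only just past the limit and short of it, at 1.44-fold, under a normexp background correction.

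The R-spondins were at the edge of detection. Rspo1 had 24.0 in LIF (detection p-value 0.084) and 50.1 in LIF plus CHIR (0.0096). Rspo3, which is expressed in the primitive streak, had 11.7 in LIF (0.18) and 50.5 in LIF plus CHIR (0.0085). Both were detected only with CHIR and just under the detection limit, and since the minimum signal of the LIF array (51.9) exceeded their signals with CHIR, neither has a measured ratio. Rspo2 and Rspo4 were detected on neither array, with signals of at most 2.28.

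Fzd10 showed the widest ratio of the members detected on both arrays. This Frizzled receptor (Entrez gene 93897, chromosome 5) had 139 in LIF, with a detection p-value of 0.0033, and 458 in LIF plus CHIR, with a detection p-value of 0. The signal was 3.29-fold higher with CHIR. Fzd3 had 28.6 in LIF (0.011) and 42.7 in LIF plus CHIR (0.0014), both below the minimum signal, so no ratio was formed.

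Fzd5 and Fzd7, receptors of the same family, were bright but did not pass detection. Fzd5 had 1328 in LIF and 1398 with CHIR, with detection p-values of 0.045 and 0.035. Fzd7 had 1580 in LIF and 1115 in LIF plus CHIR, with detection p-values of 0.29 and 0.33. The signal of Fzd7 was 1.42-fold higher in LIF, short of the limit, and that of Fzd5 differed by 1.05-fold. Their detection p-values are not multiples of 1 over the 936 negative controls, as those of an identifier with 1 probe would be, and were treated as combined over several probes. Over all identifiers, 1082 had a signal of 100 or more on an array and were detected on neither, and 0 of them had p-values of the 1-probe kind. The deposited tables used here hold 1 value per identifier, so the separate probes of Fzd5 and Fzd7 could not be compared. The same holds for the detected members Fzd10, Wnt7b, Wnt6, Fzd3 and Dvl1, whose detection p-values are also of the combined kind. Fzd5 and Fzd7 are left out of the 14 detected members. The other 6 Frizzled genes (Fzd1, Fzd2, Fzd4, Fzd6, Fzd8 and Fzd9) were detected on neither array, with signals between -19.3 and 34.7.

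The obligate co-receptors of the β-catenin branch, Lrp5 and Lrp6, gave little signal. Lrp5 had 22.9 in LIF and 19.5 with CHIR, and Lrp6 had 20.9 and 20.1. Neither passed detection on either array, so a difference in either gene was not measurable here, and a low signal may come from the probe as well as from the RNA.

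Of the receptors outside the Frizzled family, Ror2 was higher with CHIR and Ryk was level. Ror2 (Entrez gene 26564, chromosome 13), a receptor tyrosine kinase that binds Wnt5a, had 649 in LIF and 1016 in LIF plus CHIR. The ratio of 1.57 lies just past the limit. Ryk, a Wnt-binding receptor related to kinases, had 2164 in LIF and 2259 with CHIR, a 1.04-fold difference. Ror1 was detected on neither array, with 5.06 and -5.40.

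The Dishevelled genes, whose products pass the signal on from Frizzled receptors, differed little. Dvl1 had 253 in LIF and 251 with CHIR, and Dvl2 had 158 and 171, a 1.08-fold higher signal. Dvl3 was detected on neither array, with 24.0 and 19.6. None of them approached the limit.

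Sfrp1 was the single secreted antagonist of the module that was detected. This Wnt-binding protein had 1094 in LIF and 1316 with CHIR, 1.20-fold higher and under the limit. The other 8 antagonists (Dkk2, Dkk3, Dkk4, Frzb, Sfrp2, Sfrp4, Sfrp5 and Wif1) were detected on neither array. Their signals lay between -15.0 and 41.9 in LIF and between -11.7 and 23.4 in LIF plus CHIR. Wif1 had 41.9 in LIF, with a detection p-value of 0.022, and 23.4 with CHIR.

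Apart from Fzd5 and Fzd7, 33 members were detected on neither array, with signals from -18.6 to 41.9 in LIF and from -19.3 to 33.2 in LIF plus CHIR. To give the scale of background differences, the same difference was taken for the 20044 other identifiers detected on neither array with both signals under 100. The middle 95% of them lay between -16.4 and 15.6, with a median of -0.06. Of the 33 members, 29 lay within this range, 4 lay below it and 0 above, that is 12.1% outside against 5.01% by construction. The 4 were Wnt5a (-29.3), Fzd2 (-22.4), Wnt9a (-18.5) and Wif1 (-18.5). The difference was below 0 for 24 of the 33 members (72.7%), against 50.3% of the other identifiers, and the median over the members was -2.40. Dim members that passed detection are left out of the 33. Among them, Rspo3 (38.9), Rspo1 (26.1) and Fzd3 (14.1) passed only with CHIR and were brighter there. Wnt6 (-16.4) passed on both arrays and was dimmer with CHIR. The counts by direction thus depend in part on this filter and do not describe all dim members. Members that went down at these levels are not shown to be expressed in LIF, since their signals there did not pass detection.

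**Figure D3:**
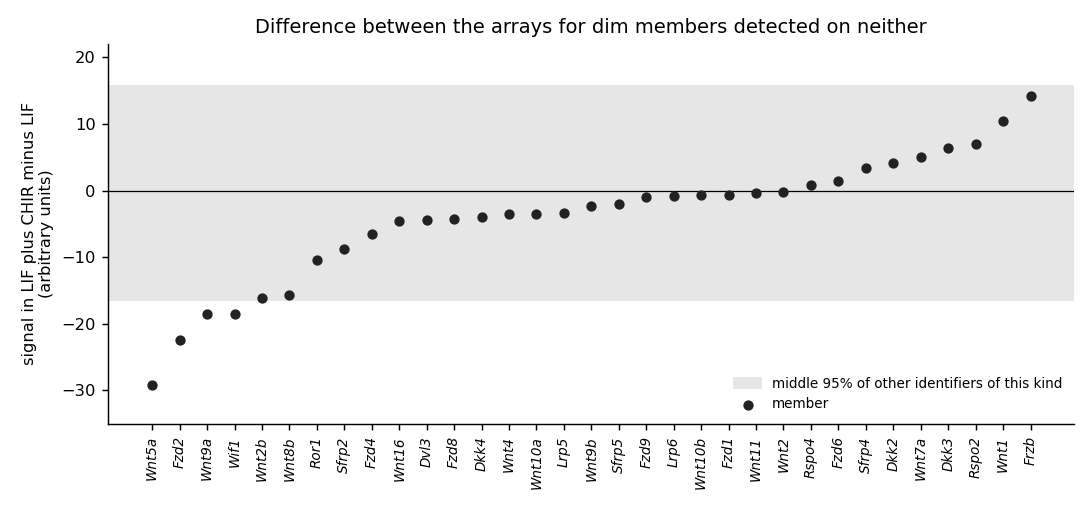
Signal in LIF plus CHIR minus signal in LIF (y axis, arbitrary units) for the 33 members detected on neither array with both signals under 100, in rising order. The grey band holds the middle 95% of other identifiers of that kind (-16.4 to 15.6), and Wnt5a, Fzd2, Wnt9a and Wif1 lie below it.

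The rest of the pathway was described with a list of 41 other genes, of which 40 were found on the array and 22 detected on at least 1 array. Of these 22, 4 were higher with CHIR and 0 lower, beside 2.57% higher and 2.84% lower of all identifiers detected on at least 1 array. The list holds known feedback and target genes and was drawn up with earlier results of these data known. The median log2 difference of the 21 with a ratio was 0.07, with 15 above 0. The 4 were Axin2 and Wls, given above, and the targets Sp5 and Cdx1. Sp5 was at least 15.6-fold higher (48.8 and 810) and Cdx1 12.8-fold higher (75.2 and 963). Among the bright genes of the list, the coactivator Pygo2 had 4414 in LIF and 4120 with CHIR, and the cell cycle gene Ccnd1 3923 and 4347. Tcf7l1, a TCF factor listed on the array as Tcf3, had 2798 and 2424, and the scaffold Axin1 had 1617 and 1652. The widest of these 4 differences was 1.15-fold. The receptors of R-spondins, Lgr4, Lgr5 and Lgr6, were detected on neither array, with signals of at most 5.50.

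The calls of the members depended little on the processing. For members above the minimum signal on both arrays, only quantile normalization, scaling to equal medians and normexp correction could change a ratio. Fzd10 stayed between 3.06-fold and 3.29-fold, Wnt3a between 2.15-fold and 2.32-fold and Porcn between 2.15-fold and 2.17-fold under every choice run that gave them a value. Ror2 stayed between 1.55-fold and 1.57-fold, never far from the limit, and fell short of a limit of 2-fold. Wnt7b stayed between 2.23-fold and 2.34-fold lower. Wnt5b stayed between 3.21-fold and 4.44-fold, depending on the minimum signal, and has no value where detection on both arrays is required. Rspo1 and Rspo3 passed 1.5-fold only where the minimum signal was lowered, left out or replaced by a normexp background correction, with 1.57-fold to 2.08-fold for Rspo1 and 1.97-fold to 4.33-fold for Rspo3.

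**Figure D4:**
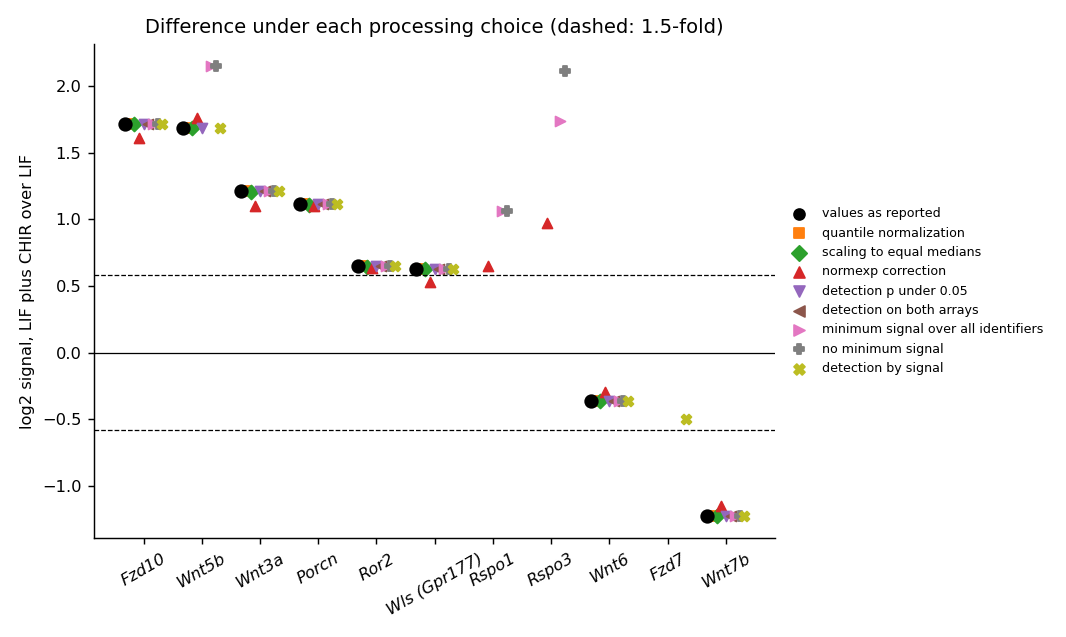
Log2 of the signal in LIF plus CHIR over LIF (y axis) for 10 members and Wls under the values as reported (black circles) and the processing alternatives, with dashed lines at 1.5-fold. Fzd10, Wnt5b, Wnt3a, Porcn and Ror2 stay above the upper line and Wnt7b below the lower one, while Rspo1 and Rspo3 have a value under some alternatives only and Wls falls short under normexp correction.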

How the data were processed

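Total RNA of both cultures was hybridized, 1 Illumina beadchip per condition, and the arrays were assigned to conditions by their titles. The signal intensity deposited by the authors is linear, already background-subtracted and given once per gene identifier. Beside each intensity stands the deposited detection p-value. The software, its version and the normalization are not given in the sources used here. The shorter table (11702 identifiers) was described as normalized, yet 0 of its shared values differed from the longer one, which was analysed.

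Identifiers with both p-values at whole multiples of 1 over 936 (tolerance 0.001 of a control), taken as the number of negative controls, were treated as having 1 probe (23344). For 6582 of them, with p-values of 0 on both arrays, this cannot be told. Of the members, 18 had combined p-values. Python 3.11.15 with numpy 2.4.6 and pandas 2.3.3 gave the ratios and counts, and matplotlib 3.10.9 the plots. The calculation was tested on simulated data with changes planted in bright identifiers only and detection taken from the signal. That test did not cover changes near the minimum signal, the detection p-values or combined probes. Normexp correction (offset 16) used limma 3.58.1 in R 4.3.3. Alternatives were quantile normalization, scaling to equal medians, normexp correction, 2 other detection rules, 2 other minimum signals, a limit of 2-fold and, added after seeing the data, detection by signal. Every member was to be accounted for. Of the other pathway genes, those past the limit and the 4 brightest others were named. Listed genes were matched by Entrez gene number through RefSeq, otherwise by symbol. The members and lists were chosen with earlier results of these data known. The number of arrays limits the precision.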

Additional observations from a re-analysis of the deposited data

How the results depend on the processing

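No paired analysis was possible because the conditions share 1 replicate number only. The count of 5 higher members became 7 with the minimum signal taken over all identifiers (15.1 in LIF), without a minimum signal and with normexp correction, each time by Rspo1 and Rspo3. It became 4 where both arrays had to detect a gene, without Wnt5b, and at 2-fold, which leaves out Ror2. The count of 1 lower member held under all alternatives. The median log2 difference of 0.27 became 0.50 with normexp correction, 0.61 with the minimum signal over all identifiers and 0.61 without one. Members at low signal enter under these settings. It became 0.19 at a detection p-value under 0.05 and 0.19 where both arrays had to detect a gene. With detection by signal, which brings in Fzd5 and Fzd7, it was 0.12. At a detection p-value under 0.05, 17 members counted as detected in LIF in place of 10, and 16 in LIF plus CHIR in place of 14. The other pathway genes gave 3 to 5 higher and 0 lower. For the 11 members with a ratio in the main setting, 87 values were formed under alternatives other than the 2-fold limit. Of these values, 0 crossed the limit of 1.5-fold or reversed. Rspo1 and Rspo3 had no ratio in the main setting and are not among them. Many of the 87 values could not cross or reverse. Other detection rules and minimum signals leave the ratio unchanged for a member above the minimum signal on both arrays. For such members, only quantile normalization, scaling to equal medians and normexp correction recompute the ratio. Signal close to background limits the dim members: under the minimum signals of 51.9 and 47.1 a difference could not be sized.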

Other observations

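Some other genes of the pathway differed between the arrays by less than the limit. They are named here after their values were seen. Prickle1, a planar cell polarity gene, had 293 without CHIR and 208 with it, 1.41-fold lower. Dact1, a regulator of Dishevelled, had 98.0 and 69.2, 1.42-fold lower. Pygo1, a coactivator of β-catenin, had 77.9 and 115, 1.48-fold higher. The polarity gene Vangl2 (974 and 1046) and the co-receptor Ptk7 (243 and 246) stayed within 1.08-fold.

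Evx1, a primitive streak gene and no member of the module, was detected on both arrays, with 117 without and 191 with CHIR, a 1.64-fold higher signal. Gsc, another such gene, was detected only with CHIR (12.5 and 63.7) and was at least 1.23-fold higher.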
